A study of Mus musculus with 15 samples.

Results

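The Ly6 genes encode small surface proteins that share a three-finger fold and are mostly held in the outer membrane by a glycosylphosphatidylinositol (GPI) anchor. Many of them lie side by side on mouse chromosome 15, and their products are in everyday use as antibody markers of blood and immune cells, among them the Ly6C epitope of monocytes, the Ly6G epitope of neutrophils and Sca-1, the product of Ly6a, on stem cells and activated lymphocytes. Some members, such as Ly6e, are induced by interferons.

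Levels of 9 named family members (Ly6e, Ly6d, Lynx1, Ly6c1, Ly6c2, Ly6i, Ly6k, Ly6a and Ly6g) were sought among 22206 tested features of Clariom S mouse arrays, and 7 of the 9 had a feature that the platform assigns to that gene symbol alone. Each of the 7 had 1 such feature, and Ly6a and Ly6g were not analysed here. All spleens came from male C57bl/10 mice, with 3 spleens on each of days 1, 3 and 7 after resection of 70% of the liver volume and 6 spleens from intact mice without surgery, and 1 array was run per spleen. Sham-operated mice were not measured on these arrays, so surgery and liver loss cannot be told apart. The intact spleens were numbered to 6 and those of each day to 3, and the intact spleens were read as a set of spleens 4 to 6 and a set of spleens 1 to 3. The labels do not say whether both sets were collected or hybridised at the same time. In the deposited table intact spleens 1 to 3, day 1 and day 7 take the places 1 to 9 and intact spleens 4 to 6 and day 3 the places 10 to 15, so if that order follows the handling of the arrays, day 3 cannot be told apart from it. The members were chosen by the log2 levels of the intact spleens, since some of them differ between these sets, so the differences between the sets are given as a description with no test.

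All values were log2 levels on a scale whose upper end was 19.93. A level near that end may understate a difference. The labelled tissue was checked with 8 measured spleen markers, including Cd79a, Cd3e, Cd8a and Vcam1, and none of the 8 lay below the array median on all arrays of any set. Correlation between arrays over all tested features ran from 0.944 to 0.987, and no 2 arrays were identical. Pancreatic acinar genes stood apart in the intact set 1 to 3, where the mean level of 24 such genes ranged from 4.61 to 14.1 over the arrays, with spleens 1 and 2 at the high end. That mean was 3.72 to 5.90 in intact spleens 4 to 6, 3.72 to 5.46 on day 1, 3.63 to 3.75 on day 3 and 3.75 to 7.39 on day 7. Whether acinar RNA has a part in any value of the family was not tested.

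For Ly6e, Ly6d and Lynx1 the arrays were divided into a high and a low side that did not overlap. The high side held all 3 arrays of day 3 and all 3 of intact spleens 4 to 6, and the low side held those of days 1 and 7 and of intact spleens 1 to 3. For Lynx1 the sides lay close, at 3.51 and 3.21, and did not form 2 distinct levels. No other measured member was divided in this way. Over all tested features, 0.815% were divided in this direction and 0.54% in the opposite one.

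Ly6e, an interferon-induced member that limits the entry of several viruses, had log2 levels of 19.34, 18.59 and 19.31 in intact spleens 4 to 6 and of 14.00, 14.50 and 14.16 in intact spleens 1 to 3. Its levels were 14.36, 13.04 and 14.97 on day 1, 19.91, 19.65 and 18.27 on day 3, and 15.81, 14.87 and 14.83 on day 7. The gap between the lowest high array and the highest low array was wider than the spread within any set. The highest day 3 array lay 0.0246 below the upper end of the scale and the highest array of intact spleens 4 to 6 lay 0.595 below it, so differences that involve these sets may be understated.

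Ly6d, known in mouse bone marrow as the marker of lymphoid progenitors committed to the B lineage and also made in stratified epithelium, had levels of 10.98, 8.37 and 11.49 in intact spleens 4 to 6 and of 5.73, 5.37 and 6.03 in intact spleens 1 to 3. On day 1 it was at 5.49, 3.51 and 5.58, on day 3 at 9.78, 11.59 and 8.91, and on day 7 at 6.19, 5.94 and 5.29. The division was the same as for Ly6e, far from the end of the scale, and the high arrays were more spread than the low ones of intact spleens 1 to 3 and day 7.

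Lynx1, whose product binds nicotinic acetylcholine receptors in the brain and dampens them, was dim. It had levels of 4.66, 5.27 and 5.01 in intact spleens 4 to 6 and of 3.07, 2.68 and 3.21 in intact spleens 1 to 3. It was at 2.84, 2.97 and 3.04 on day 1, at 4.67, 5.91 and 3.51 on day 3, and at 2.99, 2.71 and 2.71 on day 7. The low arrays were all below the array medians, which ran from 4.74 to 4.89. So were 1 of the 3 arrays of intact spleens 4 to 6 and 2 of the 3 of day 3. The dimmest array of day 3, at 3.51, lay close to the brightest of the low ones, at 3.21. Of 16 measured genes of nicotinic receptors, 15 or 16 were below the array median on all arrays of a set.

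**Figure D1:**
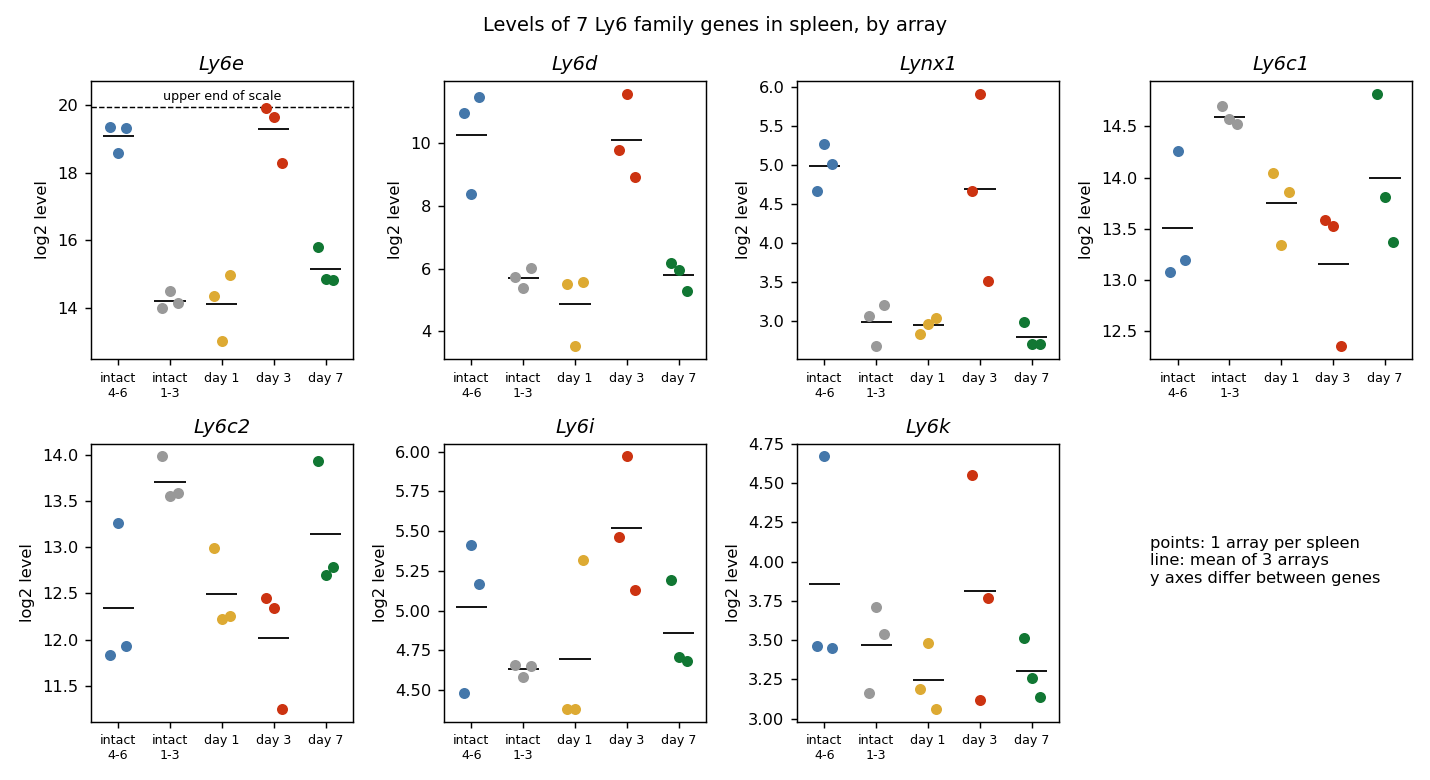
Log2 level (y axis, a separate range for each gene) of the 7 measured members on each array, with 1 point per spleen and a line at the mean of 3 arrays; the dashed line for Ly6e marks the upper end of the scale. Ly6e, Ly6d and Lynx1 are high on day 3 and in intact spleens 4 to 6, while Ly6c1 and Ly6c2 are highest in intact spleens 1 to 3 apart from 1 array of day 7 at 14.82 and 13.93.

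Between the intact sets, 5 of the 7 measured members differed by at least 1 on the log2 scale, against 4.81% of all tested features, and the arrays of both sets did not overlap for the same 5, against 18.0% of features. The mean of intact spleens 4 to 6 was higher by 4.86 for Ly6e, by 4.57 for Ly6d and by 1.99 for Lynx1, or 29.0-fold, 23.8-fold and 3.98-fold. Only 28 of the 22206 features differed by more than Ly6e in absolute size, 34 by more than Ly6d and 151 by more than Lynx1. Ly6c1 and Ly6c2 had negative differences of -1.09 and -1.37. The member next inside that level was Ly6c1, and the nearest outside it were Ly6k and Ly6i, each far from it with a difference of 0.39. These values chose the members and support nothing by themselves.

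The days could be compared with each other without any intact spleen. On day 3 Ly6e averaged 19.28 ± 0.88 (SD, n = 3), against 14.12 ± 0.99 on day 1 (SD, n = 3), a difference of 5.15. Ly6d averaged 10.09 ± 1.37 on day 3 and 4.86 ± 1.17 on day 1, a difference of 5.23, and Lynx1 4.70 ± 1.20 and 2.95 ± 0.10, a difference of 1.74 (SD, n = 3 each). All day 3 arrays of these 3 members lay above all arrays of days 1 and 7, which held for 3.31% of the tested features. Day 7 differed from day 3 by -4.11 for Ly6e, -4.28 for Ly6d and -1.89 for Lynx1.

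How these differences fared in the test turned on the intact spleens. With the 6 intact spleens as 1 group in limma, 0 of the 7 members passed an adjusted p under 0.05 for day 3 against day 1, where 0.0045% of features passed, and 4 had an unadjusted p under 0.05. The standard error of the Ly6e difference was then 1.33 and its adjusted p 0.193, and for Ly6d they were 1.40 and 0.199. For day 7 against day 3 the count was again 0 of 7, with 3 members at an unadjusted p under 0.05, and 0.991% of features passed. In this fit the difference between the intact sets, for which the members were chosen, counts as spread. It raises their standard errors, so these counts of 0 are no evidence of equal levels.

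In a fit of the 9 arrays of days 1, 3 and 7 alone, added after the values had been seen, 2 of the 7 members passed as higher on day 3 than on day 1, where 0.212% of features passed. They were Ly6e, with a standard error of 0.56 and an adjusted p of 0.00695 from limma, and Ly6d, with 0.71 and 0.0221. The same 2 members were lower on day 7 than on day 3 in that fit, with adjusted p of 0.0153 and 0.0326, where 0.856% of features passed. Lynx1 missed the threshold in both comparisons, with adjusted p of 0.266 and 0.103 (limma). Each of these comparisons sets day 3, listed beside intact spleens 4 to 6, against days listed beside intact spleens 1 to 3, so the day and the place in the series cannot be told apart.

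With the 2 intact sets as separate groups, Ly6e and Ly6d passed for day 3 against day 1 (limma adjusted p of 7.1e-05 and 0.0058), where 0.675% of features passed, and both passed in all 15 fits that left out 1 array. They also passed for day 7 against day 3 in all 15, together with Lynx1 in 10 of the 15, where 2.99% of features passed with no array left out. The members were chosen for a difference between these sets, and taking out that difference lowers their residual spread, so these p values are smaller for them by the way they were chosen. Day 7 against day 1 called 0 of 7 members in each of the 3 fits, with at most 1 at an unadjusted p under 0.05, where 0.0315% of features passed with the intact spleens as 1 group, 0.0585% with the sets separate and 0.0045% with the days alone.

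Against all 6 intact spleens, 0 of the 7 members passed on any day in limma, where 0.0%, 0.027% and 0.932% of features passed on days 1, 3 and 7, and 2, 2 and 0 members had an unadjusted p under 0.05. Nor did any member's day arrays lie wholly outside the range of the 6 intact arrays, as 5.1%, 4.66% and 8.13% of features did. The members were chosen because some differ between the intact sets, which widens their intact range and spread. The choice thus made both outcomes likely, and they are no evidence that the levels stayed the same. The differences from the mean of the 6 were -2.53, 2.63 and -1.48 for Ly6e, -3.14, 2.10 and -2.19 for Ly6d, and -1.03, 0.71 and -1.18 for Lynx1 on days 1, 3 and 7.

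Set by set, each day lay near 1 of the intact sets for these 3 members. Day 3 differed from intact spleens 4 to 6 by 0.20 for Ly6e, -0.19 for Ly6d and -0.28 for Lynx1, and 0 of 7 members passed, against 0.00901% of features, with 0 at an unadjusted p under 0.05. From intact spleens 1 to 3 it differed by 5.06, 4.38 and 1.71. Day 1 differed from intact spleens 1 to 3 by -0.10, -0.85 and -0.03, and from intact spleens 4 to 6 by -4.96, -5.42 and -2.03. Day 7 differed from intact spleens 1 to 3 by 0.95, 0.10 and -0.18, and its Ly6e arrays, like those of Ly6i, all lay above that set, which 7.93% of features did. The size of these differences, and the sign of those of Ly6d and Lynx1 on day 3 and of Ly6e and Ly6d on day 7, changed with the intact set.

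**Figure D2:**
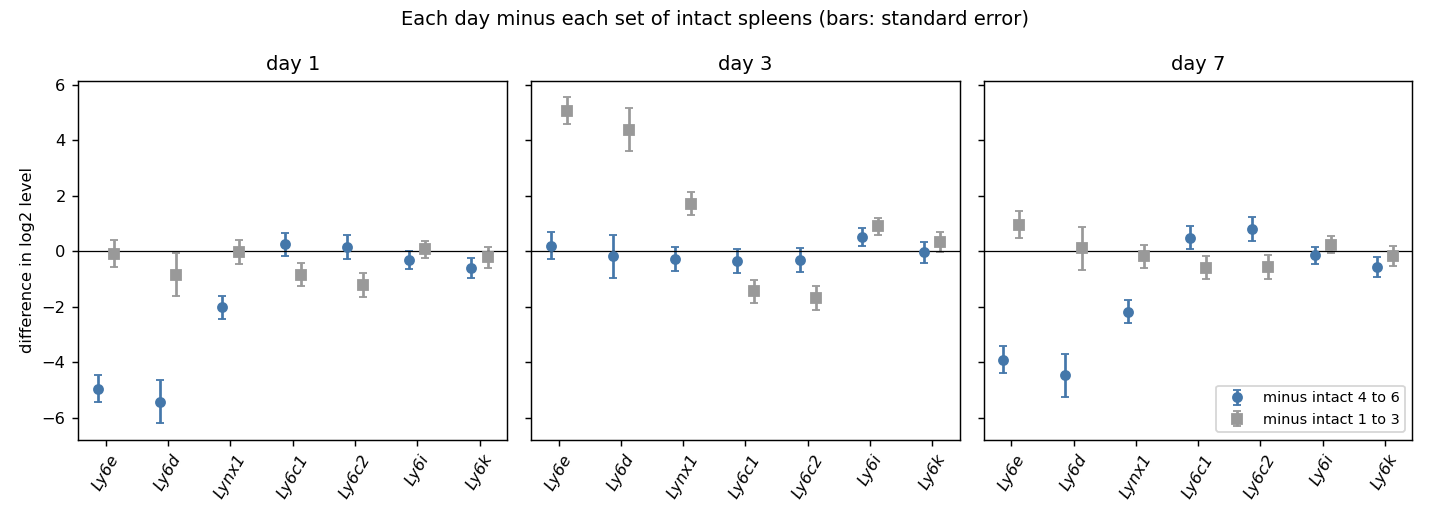
Difference in log2 level (y axis) of each day from intact spleens 4 to 6 (circles) and from intact spleens 1 to 3 (squares) for the 7 measured members, with bars at 1 standard error from limma with the intact sets as separate groups. Ly6e, Ly6d and Lynx1 lie near 0 against intact spleens 1 to 3 on day 1 and against intact spleens 4 to 6 on day 3.

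Ly6c1 and Ly6c2 are neighbouring genes for nearly the same protein, the Ly6C antigen, of which Ly6c2 is the form of inflammatory monocytes and Ly6c1 is well known from vascular endothelium. Probes for such near copies can bind transcripts of both, so the assignment of signal to either gene is uncertain. The stretches just upstream of both genes are shown to compare the pair outside the coding part. They come from RefSeq in build GRCm38.p6, both on the minus strand and written 5′ to 3′, and reach from the edge of the annotated gene to the far end of the promoter window, at chr15:75048921-75049087 for Ly6c1 and chr15:75112067-75112221 for Ly6c2. Capitals mark the longest run of 15 bases that is the same in both.
Ly6c1: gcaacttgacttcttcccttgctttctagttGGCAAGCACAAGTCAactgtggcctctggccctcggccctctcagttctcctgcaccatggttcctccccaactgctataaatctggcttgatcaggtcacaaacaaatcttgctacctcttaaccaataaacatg
Ly6c2: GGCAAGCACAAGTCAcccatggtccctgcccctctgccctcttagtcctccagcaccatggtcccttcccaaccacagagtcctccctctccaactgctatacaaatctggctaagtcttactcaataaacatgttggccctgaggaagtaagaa
In a local alignment 99 of 134 paired bases were identical with 2 gap bases, or 72.8% of positions, and in an alignment over the full length of both stretches 54 gap bases were needed and 52.7% of positions were identical. The whole windows of 250 bases before each start held 0 matches on either strand to the interferon-stimulated response element (TTTC, any 2 bases, TTTC), which 2.98% of 32851 promoter windows of that length held, and 0 to the GAS element TTCNNNGAA, which 7.02% held.

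Ly6c1 had log2 levels of 13.08, 14.26 and 13.19 in intact spleens 4 to 6 and of 14.70, 14.57 and 14.52 in intact spleens 1 to 3. It was at 14.04, 13.34 and 13.86 on day 1, at 13.59, 13.53 and 12.35 on day 3, and at 14.82, 13.81 and 13.37 on day 7. Intact spleens 1 to 3 lay close together, above every other array but the first of day 7.

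Ly6c2 had levels of 11.83, 13.26 and 11.93 in intact spleens 4 to 6 and of 13.98, 13.55 and 13.58 in intact spleens 1 to 3. It was at 12.99, 12.22 and 12.26 on day 1, at 12.45, 12.34 and 11.25 on day 3, and at 13.93, 12.70 and 12.78 on day 7. The same arrays stood out for both genes, as intact spleen 5 and the first of day 7 were high for their sets, and the third of day 3 was low for its set.

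On days 1 and 3 all arrays of the Ly6c pair lay below those of intact spleens 1 to 3. On day 1 these 2 members were the only ones to lie below that set, as 7.14% of features did, by -0.85 ± 0.42 for Ly6c1 and -1.22 ± 0.44 for Ly6c2 (limma SE). On day 3 the differences were -1.44 ± 0.42 and -1.69 ± 0.44, with the arrays again below, as for 8.87% of features. None of the 4 passed with the sets as separate groups in limma, where the adjusted p were 0.721, 0.612, 0.119 and 0.083. The levels of intact spleens 1 to 3 are among those that chose these members. Against intact spleens 4 to 6 the pair differed by at most 0.80 in absolute size on any day. Against all 6 intact spleens the day 3 differences were -0.90 ± 0.43 and -1.01 ± 0.48, with adjusted p of 0.473 and 0.470.

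**Figure D3:**
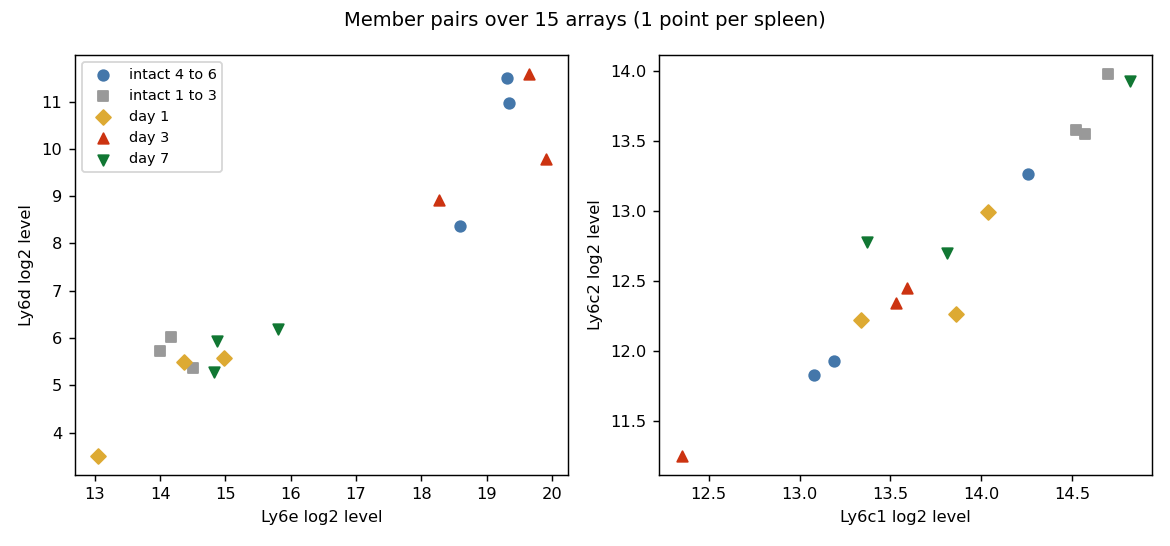
Log2 level of Ly6d against Ly6e (left) and of Ly6c2 against Ly6c1 (right), with 1 point per spleen and a marker for each set. Ly6e and Ly6d fall into a high and a low cluster, while Ly6c1 and Ly6c2 run along 1 line over all sets and also within them.

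Over the 15 arrays Ly6c1 and Ly6c2 had a Pearson r of 0.960, and 0.940 after each set's mean was taken out, so single spleens of a set were high or low for both. The arrays may share their normalization, and the probes may share transcripts. Ly6e and Ly6d fell into 2 clusters, and after the set means were taken out r was 0.710 over the 15 arrays. For Ly6e and Lynx1 that value was 0.386.

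Ly6i, a close relative of the Ly6c genes, had levels of 4.48, 5.41 and 5.17 in intact spleens 4 to 6 and of 4.66, 4.58 and 4.65 in intact spleens 1 to 3. It was at 4.38, 4.38 and 5.32 on day 1, at 5.46, 5.97 and 5.13 on day 3, and at 5.19, 4.71 and 4.68 on day 7. Most of these values were near the array median. The day 3 mean was 0.83 ± 0.32 above day 1 (limma SE, adjusted p = 0.379) and 0.70 ± 0.28 above all intact spleens (adjusted p = 0.391), and day 3 overlapped with day 1 and with intact spleens 4 to 6.

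Ly6k, known from the testis, where the mouse gene is needed for sperm to migrate, was below the array median on all 15 arrays. It had levels of 3.46, 4.67 and 3.45 in intact spleens 4 to 6 and of 3.16, 3.71 and 3.54 in intact spleens 1 to 3. It was at 3.19, 3.48 and 3.06 on day 1, at 4.55, 3.12 and 3.77 on day 3, and at 3.51, 3.26 and 3.14 on day 7. All sets overlapped for Ly6k, and the set difference of 0.39 rested on intact spleen 5, since it was -0.01 without that array.

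The members lie among other genes on chromosome 15, in the order Lynx1, Ly6d, Ly6k, then a few other genes, Ly6e, Ly6i, Ly6c1 and Ly6c2. From Adgrb1 to Gpihbp1, a stretch with 51 annotated genes, 26 had a feature of 1 symbol, and 19 of these were not members. Of the 19, 0 were divided as Ly6e was, and their differences between the intact sets ran from -0.35 to 0.57. Ly6k, which lies next to Ly6d, and Ly6m, which lies next to Ly6e, differed by 0.39 and 0.46. Day 3 minus day 1 ran from -1.14 to 0.71 over the 19 genes, and 0 passed in limma with the sets as separate groups. On all arrays 15 of the 19 were below the array median, which limits what they can show. The intact levels were used to choose the members but not the 19, so this contrast is a description only.

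**Figure D4:**
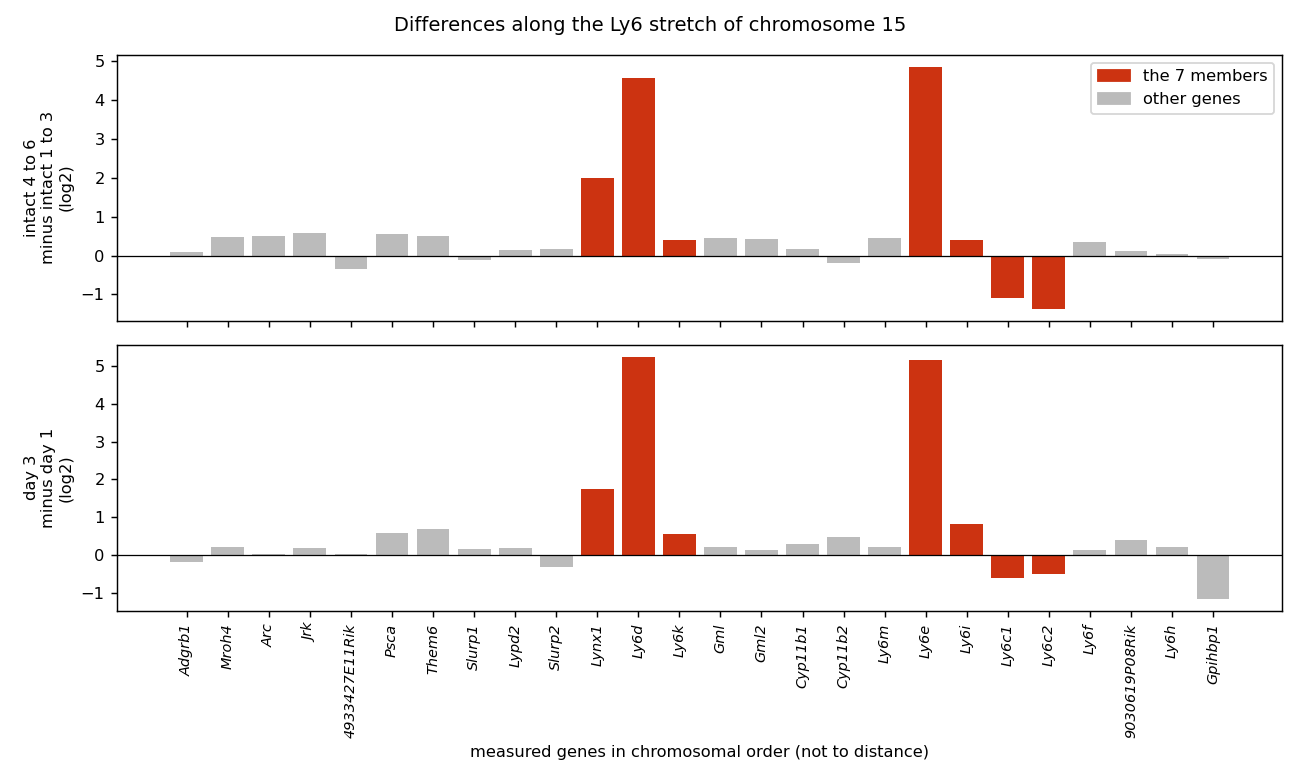
Difference in log2 level (y axes) between intact spleens 4 to 6 and 1 to 3 (top) and between days 3 and 1 (bottom) for the 26 measured genes of the stretch, in chromosomal order with even spacing; members are in red and other genes in grey. Ly6e, Ly6d and Lynx1 stand out in both panels, and the genes between them lie near 0.

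The wider Ly6 and uPAR superfamily, to which the urokinase receptor and CD59 also belong, is set beside the members as a description. The intact levels were used to choose the members but not these genes, so a weaker pattern here supports nothing. Of its 57 listed genes 46 were measured, 7 of them the members, and 0 of the other 39 were divided as Ly6e was. Of the 39, 26 were below the array median on all arrays. Only Cd59a and Cd59b, which encode inhibitors of the complement membrane attack complex, differed by at least 1 between the intact sets, with means of 7.40 and 5.88 in intact spleens 4 to 6 and of 9.34 and 7.76 in intact spleens 1 to 3. The arrays of the intact sets did not overlap for Cd59a, Cd59b, Pate3 and Bambi, lower in 4 to 6. Nor did they for Ly6g5c and Psca, higher in 4 to 6, against 18.0% of all tested features in either direction. In the superfamily as a whole 0 of 46 genes passed in any comparison with the intact spleens as 1 group (limma, adjusted p under 0.05), with 3 at an unadjusted p under 0.05 on each day against intact, and the median differences from intact were -0.07, -0.02 and -0.04 on days 1, 3 and 7, against 0.00, -0.01 and 0.00 for all tested features. The 28 measured genes of GPI anchor synthesis and attachment had median differences of 0.02, 0.21 and 0.04 from intact, with 0 of 28 past the test on any day. The day 3 median was 0.07 against intact spleens 4 to 6 and 0.40 against intact spleens 1 to 3. Between these sets the list differed by a median of 0.27.

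Interferon-stimulated genes were compared with Ly6e, since Ly6e is 1 of the genes that interferons induce. Of 43 measured genes of that list, 39 were higher on day 3 than on day 1, with a median difference of 0.91, against -0.02 for all tested features. With the intact spleens as 1 group 1 of the 43 passed (limma, adjusted p under 0.05), where 0.0045% of features passed. With the sets as separate groups 6 passed, where 0.675% of features passed. These 6 were Ifit3, Ifit3b, Irf9, Oasl2, Mx1 and Eif2ak2. Here too, the day cannot be told apart from the place in the series. Ifit3, which restrains viral RNA translation together with other members of its family, averaged 7.96 on day 3 and 5.13 on day 1, a difference of 2.82 (adjusted p = 0.00975 from limma with the intact spleens as 1 group). Between the intact sets, Ifit3 averaged 6.63 in intact spleens 4 to 6, against 6.11 in intact spleens 1 to 3, and the list's median difference was 0.33. The mean of the list ranged from 7.10 to 7.39 over the arrays of intact spleens 4 to 6, from 6.87 to 7.05 in intact spleens 1 to 3, from 6.14 to 6.87 on day 1, from 7.43 to 7.64 on day 3 and from 6.48 to 7.15 on day 7. Over the 15 arrays Ly6e had an r of 0.792 with this mean, and of 0.455 after the set means were taken out. This was not particular to Ly6e, as r was 0.744 for Ly6d, 0.662 for Ly6i and 0.638 for Lynx1 over the 15 arrays. For Ly6k, Ly6c1 and Ly6c2 it was 0.407, -0.229 and -0.204. After the set means were taken out, Ly6e had a higher r with the means of plasma cell (0.646), B lineage (0.623) and monocyte genes (0.560). The part of interferon in the Ly6e levels was not tested.

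Marker lists of cells that carry Ly6 proteins varied as well, and in whole spleen fewer cells of a type and less RNA per cell cannot be told apart. For Ly6d the mean of 22 B lineage genes ranged from 9.30 to 9.72 in intact spleens 4 to 6, from 8.64 to 9.24 in intact spleens 1 to 3, from 8.002 to 9.56 on day 1, from 8.86 to 10.3 on day 3 and from 7.94 to 8.25 on day 7. In this mean, too, intact spleens 4 to 6 lay above intact spleens 1 to 3 and day 3 above day 7, while day 1 overlapped with day 3. The mean of 19 CD8 and memory T cell genes ranged from 7.54 to 8.20 in intact spleens 4 to 6, from 6.78 to 7.65 in intact spleens 1 to 3, from 7.09 to 7.95 on day 1, from 7.40 to 8.35 on day 3 and from 6.51 to 6.67 on day 7. Over the 15 arrays Ly6d had an r of 0.766 with the B lineage mean and of 0.707 with the CD8 and memory T cell mean, and of 0.746 and 0.802 after the set means were taken out. Lynx1 had r of 0.775 and 0.733 with these means over the 15 arrays, and Ly6e of 0.676 and 0.606. After the set means were taken out, r was 0.553 and 0.495 for Lynx1 and 0.623 and 0.455 for Ly6e. Ly6d is also a gene of keratinocytes, and of 19 keratinocyte and stratified epithelium genes between 16 and 18 were below the array median on all arrays of a set. For the Ly6c pair the mean of 17 monocyte genes ranged from 7.79 to 8.19 in intact spleens 4 to 6, from 8.04 to 8.33 in intact spleens 1 to 3, from 8.47 to 8.81 on day 1, from 7.30 to 9.26 on day 3 and from 8.63 to 9.11 on day 7. Every day 1 array was thus above intact spleens 1 to 3 for this mean, while Ly6c1 and Ly6c2 were below that set, whose levels helped to choose them. From intact spleens 4 to 6 the pair differed on day 1 by 0.24 and 0.15. Over the 15 arrays Ly6c1 and Ly6c2 had an r of 0.336 and 0.280 with the monocyte mean. After the set means were taken out, r was 0.604 and 0.499. With the mean of 20 neutrophil genes, r was 0.362 and 0.356 over the 15 arrays, and 0.370 and 0.311 after that step. The mean of 17 endothelial genes, which bears on Ly6c1, ranged from 5.94 to 6.06 in intact spleens 4 to 6, from 5.86 to 6.03 in intact spleens 1 to 3, from 6.30 to 6.51 on day 1, from 5.50 to 6.68 on day 3 and from 5.53 to 5.68 on day 7. Ly6c1 had an r of -0.034 with this mean over the 15 arrays, and of 0.450 after the set means were taken out. The part of B cells, T cells, monocytes and endothelium in the family's levels was not tested.

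Among 9740 genes, the 3 whose levels were most like those of Ly6e over the 15 arrays were Gm1966, 5830417I10Rik and Apobec3, with r of 0.966, 0.954 and 0.948. After the set means were taken out, r was 0.465, 0.264 and -0.086, so the likeness lay mostly between the sets. Apobec3, a cytidine deaminase that restricts retroviruses, ranged from 9.99 to 10.2 in intact spleens 4 to 6, from 4.24 to 4.59 in intact spleens 1 to 3, from 4.25 to 4.89 on day 1, from 9.71 to 10.7 on day 3 and from 3.81 to 4.76 on day 7. The nearest genes to Ly6d were H2-Eb2, Gm1966 and Ccl19 (r of 0.949, 0.948 and 0.947), of which H2-Eb2 and Ccl19 kept 0.783 and 0.823 after the set means were taken out. Those of Lynx1 were Ambra1, Trim12a and Ifi213 (r of 0.963, 0.947 and 0.928), and those of Ly6c1 were Pde5a, Czib and Fbxl2 (r of 0.833, 0.832 and 0.828). Ly6c2 was nearest to P2rx1, Pde5a and Fbxl2 (r of 0.832, 0.802 and 0.800). These are correlations across arrays of 5 sets that may share 1 normalization, given as a description.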

How the data were processed

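RNA of 15 mouse spleens was measured on Clariom S arrays, 1 per spleen. The deposited log2 values are the authors' own RMA output (background correction, quantile normalization, probe summary; default settings of the Transcriptome Analysis Console), and the genome build of the array annotation is not given in the sources used here. These steps could not be varied. The upper end of the scale may compress the brightest features, and the sources used here do not state whether the values were capped or transformed. Arrays give no depth, and precision is limited by how many were run.

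After 6640 array controls had been dropped from 28846 features, all remaining 22206 entered the tests, dim ones included. Symbols came from the platform annotation, where 19572 features have 1 symbol. All 9 named members were to be described, each by its brightest feature, with up to 4 genes per list by smallest p and the 3 genes most correlated with each member whose SD was at least 0.5. The members and lists were chosen with earlier results of these data known.

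Groups were compared in limma 3.58.1 (R 4.3.3) in 1 fit of 4 groups, with Benjamini-Hochberg adjustment over the 22206 features and a threshold of 0.05. By their labels, arrays within a group are biological replicates, and p values measure only the spread between these samples. The intact sets follow the replicate numbers in the labels. Differences and SEs are on the log2 scale, and linear folds are 2 to that power. Promoter windows came from a reference set drawn from RefSeq, and the set used here held entries for only 3 members. The steps were tested on simulated data. Alternatives were a replicate block, separate intact sets, only the compared groups, a filter on dim features, another prior, further scaling, other thresholds, each intact set alone and leaving out each array. Fits of days only, without intact spleens 1 and 2, and leaving out each array with the sets separate were added after the data were seen.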

Additional observations from a re-analysis of the deposited data

Results flagged for a closer look

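Among the 7 measured members, 1 array stood far from the others in the 6 intact spleens, the only group examined for this. The days, with 3 arrays each, were not examined. There, too, an array could lie apart, as for Ly6i on day 1 (4.38, 4.38 and 5.32) and Lynx1 on day 7 (2.99, 2.71 and 2.71). Ly6k had a log2 level of 4.67 in intact spleen 5, while the other 5 intact spleens lay between 3.16 and 3.71, a gap that took up 0.633 of the range of the 6 arrays, above the critical value of Dixon's test at the usual level. Chance passes that value in about 1 of 20 groups, and 7 members were examined. Ly6k was below the array median on this array too.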

How the results depend on the processing

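Of 1002 refits of the 42 tested differences of members, 940 kept their direction and their side of the threshold, 27 passed the test where the fit of 4 groups did not and 35 changed sign, 0 of them with an adjusted p under 0.05 (limma; lowest 0.557). That fit called 0 members, so it held no call to lose. Ly6e is limited by the upper end of the scale, and Ly6k and Lynx1 by low signal.

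The share of all features past the same test follows each count in brackets. At an unadjusted p under 0.05 and a fold of 2 or more there were 2 members on day 1 (2.46%) and 1 on day 3 (1.98%) against intact, 3 for day 3 against day 1 (3.95%) and 3 for day 7 against day 3 (7.89%). The intact sets as separate groups gave 2 for day 3 against day 1 (0.675%) and 3 for day 7 against day 3 (2.99%). Against the mean of both sets that fit gave 1 member, Ly6e, on day 1 (0.0766%) and 1, Ly6e, on day 3 (0.347%), and 0 to 2 on each of days 1, 3 and 7 when 1 array was left out. That mean lies midway between sets chosen for being apart, so a day level with either set must differ from it, and these calls show no change on a day. Lynx1 for day 7 against day 3 was lost there without the first or second array of day 3 or any array of day 7. Days 1, 3 and 7 alone gave 2 members for day 3 against day 1 (0.212%) and 2 for day 7 against day 3 (0.856%). The compared groups alone gave 1, Ly6e, for day 7 against day 3 (0.279%). Intact spleens 1 to 3 alone gave 2 on day 3 (0.653%), and intact spleens 4 to 6 alone 2 on day 1 (0.941%) and 3 on day 7 (4.31%), against levels that chose the members. Leaving out 1 array gave 0 to 1 for day 7 against day 3 (Lynx1, without the third array of day 3; 4.13%) and 0 for the other comparisons.

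Same-numbered arrays did not deviate together (18 pairs, r from -0.208 to 0.222, 3 of 12 arrays nearest to their own number). With the replicate number as a block, over numbers 1 to 3 only, 3 members passed on day 3 against intact (Ly6e, Ly6d and Ly6c2; 0.351%), and Ly6e and Ly6d, or 2, for day 3 against day 1 (0.333%) and 2 for day 7 against day 3 (1.51%). That fit leaves out intact spleens 4 to 6.

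Signs changed as follows. With the block, and likewise with intact spleens 1 to 3 alone, the differences from intact were 0.065 for Ly6i on day 1 and 0.95 for Ly6e, 0.10 for Ly6d and -0.57 for Ly6c2 on day 7. With intact spleens 4 to 6 alone they were 0.24 for Ly6c1 and 0.15 for Ly6c2 on day 1, -0.28 for Lynx1, -0.19 for Ly6d and -0.049 for Ly6k on day 3, and -0.16 for Ly6i and 0.49 for Ly6c1 on day 7. With intact spleens 3 to 6, without the 2 spleens high in acinar genes, Ly6i was at -0.064 and Ly6c1 at 0.23 on day 7, and further quantile normalization put Ly6c2 at -0.069. Leaving out 1 array, the differences from intact ran from -0.47 to 0.26 for Ly6c1, -0.13 to 0.15 for Ly6i and -0.28 to 0.33 for Ly6c2 on day 7, from -0.44 to 0.028 for Ly6i on day 1 and from -0.22 to 0.49 for Ly6k on day 3; day 7 against day 1 ran from -0.16 to 0.56 for Ly6c1 and from -0.045 to 0.18 for Ly6k. The cause was not tested. The mean over several features of a gene was not run, since each member has 1 feature.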

Other observations

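Other gene groups were compared over the days as well. Of 20 measured neutrophil genes all were higher on day 7 than in the 6 intact spleens, with a median difference of 2.38. Of the 20, 1 passed the test (limma, adjusted p under 0.05), where 0.932% of features passed. The median was 2.05 against intact spleens 1 to 3 and 2.66 against intact spleens 4 to 6. Intact spleens 4 to 6 minus 1 to 3 gave a median of -1.12 for this list. Ly6g, the gene of the usual neutrophil epitope, was not analysed here. Of 22 B lineage genes 19 were lower on day 7 than in intact spleens, with a median difference of -1.29 and 1 past the test (0.932% of features). The median was -0.77 against intact spleens 1 to 3 and -1.55 against intact spleens 4 to 6. Intact spleens 4 to 6 minus 1 to 3 gave a median of 0.53 for this list. Of the 22, 20 were lower on day 7 than on day 3, with a median of -1.46 and 4 past the test (0.991% of features). For Ly6d the difference between day 7 and day 3 was -4.28.

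The 18 measured genes of interferon receptors and signalling had a median difference of 0.24 between day 3 and day 1. Of the 18, 0 passed the test (0.0045% of features) and 7 had an unadjusted p under 0.05 (limma).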
